A study of Mus musculus with 11 samples.

Results

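The 9 Sox genes described here are Sox1, Sox2 and Sox3 of the SoxB1 subgroup, Sox21 of SoxB2, Sox4 and Sox11 of SoxC, Sox8 and Sox9 of SoxE, and Sox6 of SoxD. They were taken by name from 48440 genes in the count table of the cultured neural progenitor cells (NPCs) and from 32285 genes in the single-cell matrices. Both experiments compared WT with Syncrip cKO mice at E14.5, in which Emx1-Cre, active in the dorsal neocortex, removes exons of Syncrip that loxP sites flank on both alleles (Syncrip fl/fl). RNA-seq was run on 3 WT and 3 cKO cultures of primary NPCs, dissected from around the lateral ventricles and kept in medium with EGF and bFGF, and scRNA-seq on dissected dorsal cortex of 1 WT and 1 cKO embryo of the same litter. The labels call the controls WT and give no further allele for them, and they do not say whether the cultures came from separate embryos, so the p-values measure the spread between these cultures.

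Sox proteins bind DNA through an HMG box and usually act with a partner factor. In the developing neocortex, SoxB1 factors are known for keeping progenitors undifferentiated, and Sox21 is known to counteract them. SoxC factors are known for turning on neuronal genes as cells leave the progenitor state, SoxE factors for gliogenesis and progenitor maintenance, and SoxD factors such as Sox6, which have no activation domain of their own, for tuning the timing of differentiation and the identity of interneurons.

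In the sequence of the box, the SoxB, SoxC and SoxE genes are each most alike within their group. The 60 coding bases most alike between Sox2 and the other 8 genes are shown for that reason. They were found in GENCODE M21 transcripts (mm10), match the genome, lie in 1 exon in each gene and are written 5′ to 3′ on the coding strand, with capitals for the bases that differ from Sox2.
Sox2: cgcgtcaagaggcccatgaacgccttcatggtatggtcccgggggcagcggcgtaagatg
Sox1: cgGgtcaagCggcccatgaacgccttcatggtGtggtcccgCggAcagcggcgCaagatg
Sox3: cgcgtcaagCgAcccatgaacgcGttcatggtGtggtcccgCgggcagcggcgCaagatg
Sox21: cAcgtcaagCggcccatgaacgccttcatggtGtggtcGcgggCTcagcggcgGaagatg
Sox4: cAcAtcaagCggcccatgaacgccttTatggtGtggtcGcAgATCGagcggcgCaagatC
Sox11: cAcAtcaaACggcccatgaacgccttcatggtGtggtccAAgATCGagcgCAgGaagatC
Sox8: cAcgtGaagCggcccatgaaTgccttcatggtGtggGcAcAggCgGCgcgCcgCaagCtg
Sox9: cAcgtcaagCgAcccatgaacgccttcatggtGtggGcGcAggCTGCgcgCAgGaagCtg
Sox6: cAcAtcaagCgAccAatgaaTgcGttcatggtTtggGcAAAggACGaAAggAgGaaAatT
In this order the stretches lie at chr3:34650539-34650598 (+), chr8:12396508-12396567 (+), chrX:60892945-60893004 (-), chr14:118235558-118235617 (-), chr13:28952791-28952850 (-), chr12:27342208-27342267 (-), chr17:25570172-25570231 (-), chr11:112782894-112782953 (+) and chr7:115489712-115489771 (-). Sox1, Sox3 and Sox21 differ from Sox2 at 6, 6 and 7 of the 60 bases, Sox4 and Sox11 at 13 and 15, Sox8 and Sox9 at 14 and 15, and Sox6 at 21. Over the most alike 237 bases, Sox4 and Sox11 share 89.03% and Sox8 and Sox9 share 85.23% of bases, against 68.78% for Sox2 and Sox4 and 57.38% for Sox2 and Sox6. Sox21 is not set apart from SoxB1 in this way, as Sox2 shares 87.76% of bases with Sox21 and 87.76% with Sox3. The longest run of identical bases in any of the 36 pairs of transcripts is 48 bases, between Sox4 and Sox11, and is shorter than the 150 bases of a read in the culture libraries.

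The cultures held 16962903 to 22708400 counts each, and 14432 genes passed the filter on low counts. Levels in cultures are given as CPM, the count of a gene scaled to a common library total. Syncrip, counted over the whole gene, was at 78.0, 79.8 and 79.9 CPM in the WT and at 90.3, 88.7 and 81.5 CPM in the cKO cultures (0.13 ± 0.08, adjusted p = 0.180). These counts include exons outside the deletion, as do 3′ UMIs, and therefore do not check the genotype. The paper reports its own checks of the knockout in RNA and protein, among them RNA-seq tracks of E14.5 cKO neurospheres without the deleted exons. By counts of Y-linked genes, WT culture 1, WT culture 2 and cKO culture 1 were male and the others female. Markers of apical progenitors (10 of 10 tested) summed to 6344 to 7688 CPM in WT and 6872 to 7714 CPM in cKO cultures, and no marker of red blood cells passed the filter. For scRNA-seq, 8214 WT and 9560 cKO cells were kept, with medians of 11705 and 11012.5 unique molecular identifiers (UMIs) per cell, and 22 barcodes occurred in both libraries. The WT embryo was male and the cKO embryo female.

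Sox1 and Sox2 have no count in any culture, and this is not a measure of their expression. Sox2 has 1 exon at chr3:34650405-34652461 (+), inside the span of the noncoding Sox2ot on the same strand, and Sox1 has 1 exon at chr8:12395295-12400126 (+), inside the span of Gm5607. All 10755 genes of the table that lie wholly inside the span of another gene are listed at 0 in all cultures, whereas 14006 of 27220 genes that share no base with another gene (51.5%) are. Sox2ot itself gave 176, 210 and 221 CPM in WT cultures 1 to 3 against 134, 156 and 159 CPM in the cKO cultures, for a log2 change of -0.43 ± 0.10 (SE, adjusted p = 0.00295). Whether reads on Sox2 were counted as Sox2ot or left out is not given, so the Sox2ot count is not a measure of Sox2. Gm5607 was low, at 12.1 ± 3.18 CPM in the WT and 8.66 ± 1.76 CPM in the cKO cultures (adjusted p = 0.0548). The sharing of bases also touches Sox4 (57.4% of its span shared with Gm26735) and Sox21 (799 of 3799 bases shared with Gm4675), whose counts may stand for the remaining bases only.

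All 7 Sox genes that could be measured in the cultures changed in cKO NPCs: Sox3 and Sox6 rose, and Sox21, Sox4, Sox11, Sox8 and Sox9 fell. In each of the 7 the cultures of the genotypes did not overlap. Of all genes tested, 39.5% were called (19.7% higher and 19.8% lower in cKO) and 50.4% did not overlap (25.7% higher and 24.7% lower), so a call is common in this comparison. The median log2 fold change was -0.34 over the 7 genes and 0.00 over all genes tested. Throughout, a call is an adjusted p under 0.05 by the quasi-likelihood test of edgeR with Benjamini-Hochberg adjustment over all genes tested, errors of log2 fold changes are SE, and means are given ± SD with n = 3. An exact permutation test of 1 gene cannot go below 0.1 with 3 cultures against 3. In cultures, fewer cells of a type and less RNA per cell cannot be told apart.

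The largest difference among the 7 was in the SoxC gene Sox11 (chr12:27334264-27342574, 1 exon), which is known for driving neuronal genes in young neurons. It gave 317, 309 and 407 CPM in WT cultures 1 to 3 against 136, 126 and 130 CPM in the cKO cultures. Every cKO culture lay far under the lowest WT culture, and WT culture 3 stood above the other two. The means were 345 ± 54.5 and 131 ± 4.88 CPM, a log2 change of -1.40 ± 0.10 (adjusted p = 2.60e-07). Sox4 (chr13:28948919-28953713, 1 exon), the other SoxC gene, gave 536, 638 and 637 CPM in WT cultures 1 to 3 against 410, 473 and 422 CPM in the cKO cultures. The cKO cultures again lay under every WT culture, but the fall was smaller, at -0.47 ± 0.09 (adjusted p = 0.00121).

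Sox3 (chrX:60891366-60893430, 1 exon), the SoxB1 gene with usable counts, gave 75.1, 87.8 and 70.1 CPM in WT cultures 1 to 3 against 113, 126 and 116 CPM in the cKO cultures. All cKO cultures lay above all WT cultures, with a log2 fold change of 0.61 ± 0.09 (adjusted p = 0.000125). Sox3 is X-linked, and the female WT culture 3 had the lowest level of the WT cultures and the male cKO culture 1 the lowest of the cKO cultures. With the sex of the culture in the fit, Sox3 stayed called. Sox21 (chr14:118233232-118237030, 1 exon), its SoxB2 relative, gave 181, 211 and 218 CPM in WT cultures 1 to 3 against 156, 169 and 163 CPM in the cKO cultures, a fall of -0.32 ± 0.08 (adjusted p = 0.00800). The gap between the lowest WT and the highest cKO culture was small for Sox21.

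Both SoxE genes fell. Sox8 (chr17:25565892-25570686) gave 383, 423 and 363 CPM in WT cultures 1 to 3 against 251, 273 and 268 CPM in the cKO cultures, for a log2 change of -0.56 ± 0.08 (adjusted p = 0.000139). Sox9 (chr11:112782224-112787760), which is known as a driver of gliogenesis, gave 456, 474 and 401 CPM in WT cultures 1 to 3 against 366, 334 and 353 CPM in the cKO cultures, for a log2 change of -0.34 ± 0.08 (adjusted p = 0.00651). Neither gene shares a base with another gene, and in both the cKO cultures were closer to each other than the WT cultures.

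Sox6 (chr7:115470872-116038796), the SoxD gene, had the largest rise. It gave 471, 420 and 422 CPM in WT cultures 1 to 3 against 760, 751 and 718 CPM in the cKO cultures. The means were 438 ± 28.5 and 743 ± 22.2 CPM, a log2 fold change of 0.76 ± 0.08 (adjusted p = 8.03e-06). Its span of 567925 bases holds 14832 exonic bases, and since the table gives each gene its whole span as length, its counts may include introns. Markers of the ganglionic eminence (GE), in which Sox6 is also expressed, moved with it only as a sum. They summed to 253 to 303 CPM in WT and 468 to 527 CPM in cKO cultures, mostly as Erbb4 (210 and 440 CPM on average). Of 10 markers 6 were tested, and 1 rose and 2 fell, against 19.7% higher and 19.8% lower over all genes. Their part in the rise of Sox6 was not tested.

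**Figure D1:**
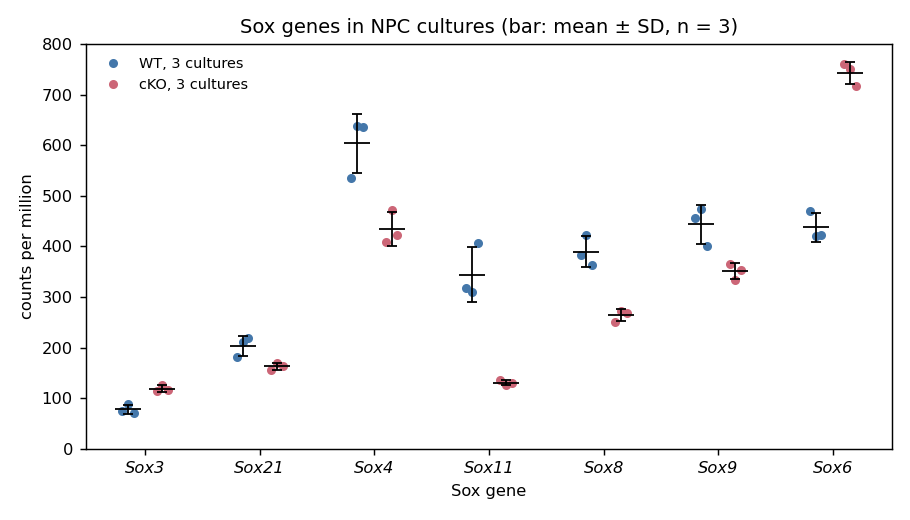
Level (CPM) of the 7 measurable Sox genes in each NPC culture (blue, WT; red, cKO), with black bars for the mean ± SD of 3 cultures. The red points lie above all blue points for Sox3 and Sox6 and under all of them for the other 5 genes, and the gap in CPM between the genotypes is widest for Sox6.

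Levels of different genes can be compared only per length. Per kilobase of exon that no other gene shares, and taking it that shared bases gave no counts, Sox4 had the highest mean among the WT cultures at 296 CPM, followed by Sox8 at 125, Sox9 at 107, Sox21 at 67.8, Sox11 at 41.5, Sox3 at 37.6 and Sox6 at 29.5 CPM. In cKO cultures the same quantity was 213 CPM for Sox4, 84.7 for Sox8, 85.0 for Sox9, 54.3 for Sox21, 15.7 for Sox11, 57.4 for Sox3 and 50.1 for Sox6. Sox11, which was between Sox21 and Sox3 in WT cultures, was the lowest of the 7 in cKO cultures.

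Of 11 other Sox genes in the table, 5 passed the filter. Sox5, the other SoxD gene of the neocortex, rose, from 99.8, 93.1 and 104 CPM to 130, 119 and 112 CPM (0.28 ± 0.08, adjusted p = 0.0117), but was not called without WT culture 2 (adjusted p = 0.0609) or cKO culture 1 (adjusted p = 0.0939). Sox13, also SoxD, fell by 0.60 on the log2 scale (adjusted p = 0.00384). Sox12, the third SoxC gene, did not pass (-0.10 ± 0.08, adjusted p = 0.357), and neither did the SoxE gene Sox10 (-0.25 ± 0.19, adjusted p = 0.327) nor Sox30 (0.08 ± 0.37, adjusted p = 0.880). With the sex of the culture in the fit, Sox10 was called, at -0.42 ± 0.08 (adjusted p = 0.000526), and with the replicate block its adjusted p was 0.0145. The differences between these genes and the members of their subgroups were not tested.

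Genes that SoxC factors are linked to in neurons were called lower for 7 and higher for 0 of the 10 that were tested (12 listed), with a median log2 fold change of -0.48. For this list and the markers below, the shares over all genes tested were 19.8% lower and 19.7% higher. Stmn2, a tubulin-binding protein of growing neurites, fell from 15.1 ± 1.68 to 0.152 ± 0.0384 CPM (-6.56 ± 0.26, adjusted p = 8.22e-10). Neurod6, Neurod2 and Nhlh1, bHLH factors of young neurons, fell by 4.14, 2.24 and 1.96 on the log2 scale. Markers of migrating neurons moved with Sox11 and Sox4: 4 of 6 tested fell, 0 rose, and their summed level was 353 to 364 CPM in WT and 252 to 260 CPM in cKO cultures. Markers of immature neurons (7 tested, 2 higher, 3 lower) summed to 328 to 358 CPM in WT and 406 to 414 CPM in cKO, but their median log2 fold change was -0.52. The higher sum came mostly from Tle4 (262 ± 27.3 and 349 ± 5.51 CPM), named after its values were seen, while Neurod6, Neurod2 and Bcl11b of this list fell. The part of neurons among the cultured cells in the fall of Sox11 and Sox4 was not tested.

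Partners of SoxB1 factors and genes of radial glia moved both ways, with 4 of 16 tested higher and 5 lower and a median of 0.14. Of all genes tested, 19.7% were called higher and 19.8% lower, so these counts say little about the list. Hes1, a Notch effector that keeps progenitors from differentiating, rose from 4.91 ± 0.438 to 35.1 ± 3.26 CPM (2.84 ± 0.13, adjusted p = 2.54e-09). The intermediate filament gene Nes (0.92 ± 0.10) and the fatty acid binding protein gene Fabp7 (0.75 ± 0.14) rose, and Prom1, a membrane protein of progenitors, fell by 1.26 on the log2 scale. Beside the same shares of all genes, 5 of 15 tested glial genes linked to SoxE rose and 6 fell, with a median of -0.06. The water channel gene Aqp4 fell from 274 ± 39.7 to 65.8 ± 4.82 CPM (-2.06 ± 0.11, adjusted p = 1.09e-08), the adhesion gene Hepacam fell by 0.81 and Mmd2 fell by 0.51 on the log2 scale, whereas Olig1, a factor of the oligodendrocyte lineage, rose by 0.44 ± 0.10. Without cKO culture 1, 2 or 3 the rises in this list numbered 2, and without WT culture 1 they numbered 3.

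In the neocortex, the 9 genes were followed across cell classes named from markers that hold no Sox gene, after clustering without Sox genes. A level is a gene's CPM among the UMIs of a class, with an exact Poisson 95% interval in parentheses. UMIs are counted at the 3′ end and were not scaled by gene length. Whether intronic reads were counted is not given, so for long genes such as Sox6 an effect of length is not excluded. A ratio is given as log2 (cKO/WT), and its 95% interval is exact, conditional on the summed UMIs. Both intervals cover counting error only. With 1 embryo per genotype no test was made, and the values describe these embryos. Apical progenitors (APs) numbered 953 in WT and 1307 in cKO, intermediate progenitors 669 and 707, migrating neurons 2034 and 2247, immature neurons 2366 and 2484, and cells with GE markers (GE cells), found in the dissected dorsal cortex, 1189 and 1629.

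In the WT embryo, 6 of the 9 genes had their highest level in APs, namely Sox2, Sox3, Sox21, Sox8, Sox9 and Sox6. Sox1 was highest in GE cells, and Sox4 and Sox11 were highest in migrating neurons. Among SoxB1 genes, Sox2 was at 377 CPM (367 to 388) in APs, 306 in GE cells, 125 in intermediate progenitors, 12.2 in migrating and 5.39 in immature neurons. The intervals of these classes do not meet. Sox3 dropped more steeply outside APs, from 118 CPM (112 to 124) to 19.9 in intermediate progenitors and 7.02 in GE cells. Sox1 was at 83.6 CPM (78.3 to 89.3) in GE cells and 76.3 CPM (71.6 to 81.2) in APs, whose intervals meet, and at 15.6 CPM in intermediate progenitors. Thus GE cells had levels of Sox1 and Sox2 near those of APs but little Sox3.

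Sox21 was at 105 CPM (99.6 to 111) in APs and at 25.3 and 24.6 CPM in GE cells and intermediate progenitors, whose intervals meet. Sox9 was at 320 CPM (311 to 330) in APs, with the next highest level, 98.0 CPM (78.4 to 121), in 63 Cajal-Retzius cells, followed by 47.6 CPM in GE cells and 45.5 CPM in intermediate progenitors, whose intervals meet. Sox8 was low throughout, with 15.9 CPM (13.8 to 18.2) in APs and 8.86 CPM in GE cells. Sox6 reached beyond APs, with 805 CPM (789 to 821) in APs, 641 in intermediate progenitors, 565 in GE cells, 128 in migrating and 18.8 in immature neurons.

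The SoxC genes ran the other way. Sox11 was at 810 CPM (795 to 826) in APs, 3199 in intermediate progenitors, 5734 (5704 to 5763) in migrating neurons, 4150 in immature neurons and 3312 in GE cells. Sox4 was at 951 CPM (935 to 968) in APs, 2657 in intermediate progenitors, 2936 in migrating neurons, 2804 in immature neurons and 2301 in GE cells. Sox4 therefore came near its highest level in intermediate progenitors, while Sox11 was higher again in migrating neurons.

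**Figure D2:**
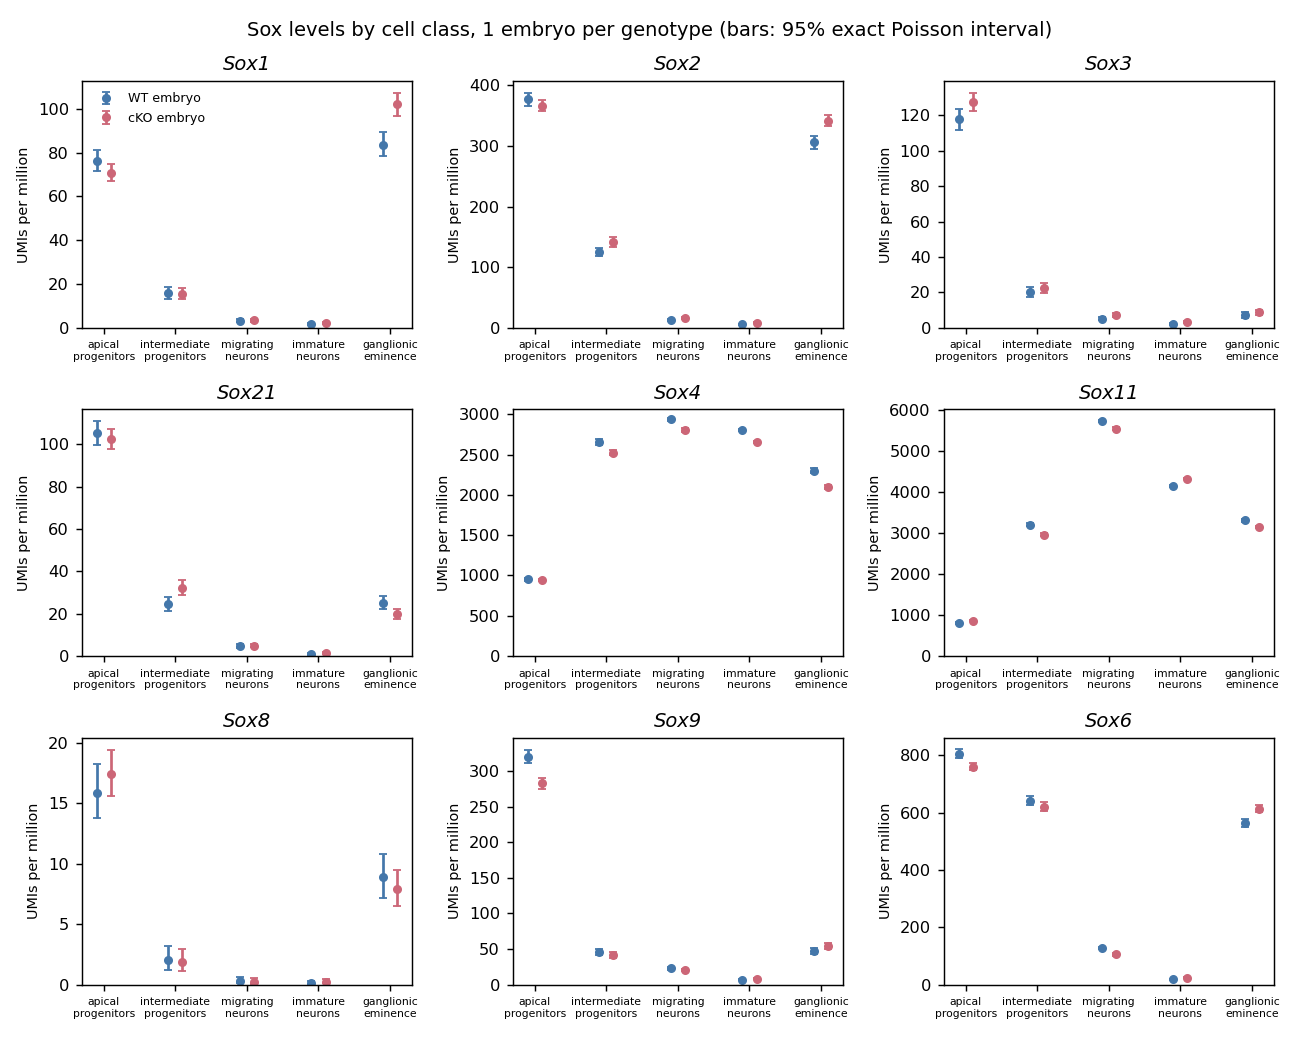
Level (CPM of UMIs) of each of the 9 Sox genes (panels, each with its own axis from 0) in 5 cell classes of the WT (blue) and the cKO (red) embryo, with exact Poisson 95% intervals. Sox2, Sox3, Sox21, Sox8, Sox9 and Sox6 are highest on the left, in APs, Sox4 and Sox11 are lowest there, and blue and red points of a class lie close together beside the differences between classes.

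The balance of SoxC to SoxB1 differed widely between classes. For each UMI of SoxB1 there were 3.08 UMIs of SoxC in WT APs, 36.6 in intermediate progenitors, 422 in migrating and 760 in immature neurons, and 14.2 in GE cells. The same ratio in the cKO embryo was 3.20, 30.6, 320, 536 and 11.6, in the same order of classes. Of the UMIs of the 9 genes, SoxB1 made up 16.0% in APs of both embryos, and SoxC made up 49.2% in WT and 51.1% in cKO APs and 99.5% and 99.3% in immature neurons. These values include cells marked as doublets. With doublets removed, WT APs had Sox11 at 638 and Sox4 at 877 CPM, against 810 and 951 CPM with all cells. Their log2 ratios in APs were then -0.10 and -0.11. The balance was not computed again without doublets, so its size in APs and its order between the embryos may change.

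**Figure D3:**
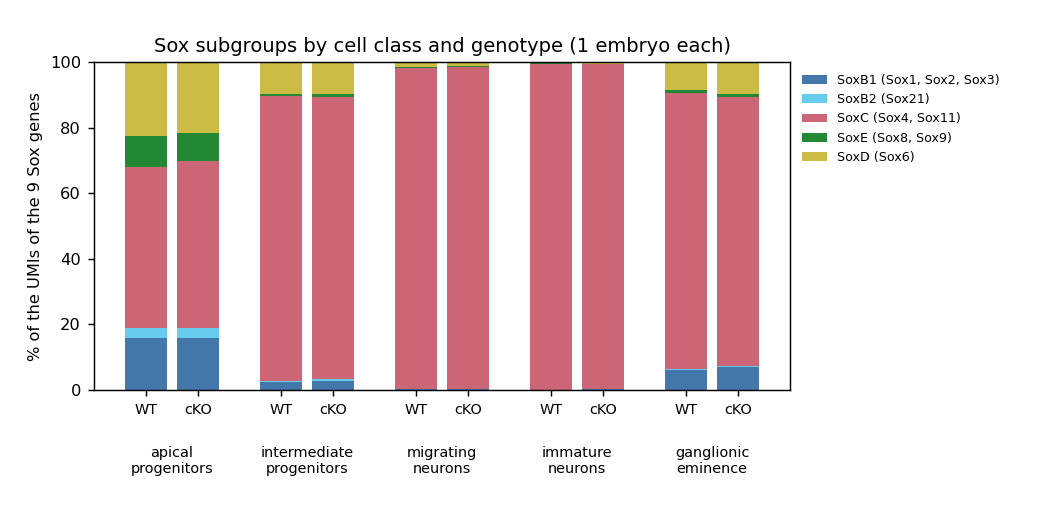
Share of each Sox subgroup in the UMIs of the 9 genes (bars sum to 100%), for 5 cell classes of the WT and the cKO embryo, with doublets kept. SoxC grows from 49.2% in WT APs to 87.0% in intermediate progenitors and 99.5% in immature neurons, and neighbouring WT and cKO bars look alike.

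UMIs in cells that should lack a gene set a floor to these levels, and whether they come from free RNA was not tested. In 54 WT and 55 cKO red blood cells, which should lack Sox2, Sox3 and Sox11, Sox4 was at 294 and 304 CPM and Sox11 at 276 and 854 CPM. Sox2 was at 22.3 CPM in WT red blood cells and had no UMI in cKO red blood cells, which allows up to 13.2 CPM, and in microglia it was at 39.3 and 34.1 CPM. The Sox2 levels of migrating and immature neurons lay under those of microglia. Endothelial cells had less Sox2 (5.76 CPM in WT and 3.68 CPM in cKO) than migrating neurons (12.2 and 15.6 CPM). Whether Sox2 in neurons is background therefore depends on the class used as the floor and was not settled. Sox3 had no UMI in red blood cells of either embryo or in WT microglia, whose limits (13.4, 13.2 and 7.85 CPM) lie above its levels in neurons. The Sox4 levels of APs lay above those of red blood cells, but the Sox11 levels of cKO APs (868 CPM) and cKO red blood cells (854 CPM) were close. Sox11 also varied between other classes. In the cKO embryo it was at 318 CPM in endothelial cells, 622 CPM in meningeal fibroblasts and 832 CPM in pericytes. In the WT embryo it was at 544, 1004 and 446 CPM in the same order. The level of WT meningeal fibroblasts (904 to 1111 CPM) lay above that of WT APs (795 to 826 CPM). Whether these classes express Sox11 was not tested, so its floor is not settled. With each cell thinned to 5000 UMIs, Sox2 had a UMI in 80.2% of 777 WT and 77.4% of 1136 cKO APs, in 1.72% and 2.93% of immature neurons, and in 5.26% of 19 and 11.8% of 17 microglia. The unthinned shares were 83.6% and 87.3% in APs, at medians of 12524 and 12657 UMIs, and 6.45% and 14.3% in microglia, at medians of 11326 and 3459 UMIs.

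In APs the 9 genes were at close levels in the embryos. The ratios ran from -0.18 to 0.14 with a median of -0.04, and 0 of 9 lay beyond 0.2 in either direction, against 13.0% of 10363 genes with at least 200 UMIs beyond 0.2 upward and 10.2% downward. Genes near 200 UMIs have a wider counting error than most of the 9 genes. These shares are therefore not like for like, and the count of 0 says little by itself. Sox9 had the lowest ratio, -0.18 (-0.24 to -0.12), with 320 CPM in the WT and 283 CPM in the cKO embryo. Sox2 was at 377 and 367 CPM (-0.04, -0.09 to 0.01), Sox1 at 76.3 and 70.7 CPM (-0.11, -0.23 to 0.01), and Sox3 at 118 and 128 CPM (0.12, 0.02 to 0.21). Sox21 was at 105 and 102 CPM (-0.04, -0.14 to 0.06), and Sox4 at 951 and 939 CPM (-0.02, -0.05 to 0.02). Sox8, with 204 and 330 UMIs, had a ratio of 0.14 (-0.12 to 0.40). The count of 0 beyond 0.2 held in each of the 7 alternatives tried.

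The cultures and the APs gave opposite signs for Sox11, Sox6 and Sox8, though the interval of Sox8 in APs spans 0. Sox11 had a log2 fold change of -1.40 in cultures and a ratio of 0.10 (0.06 to 0.14) in APs, with 810 CPM in the WT and 868 CPM in the cKO embryo. With doublets removed its level in WT APs was 638 CPM and the ratio became -0.10, and it was -0.05 at a clustering resolution of 1.2, so the sign in APs was not stable. Sox6 had a log2 fold change of 0.76 in cultures and a ratio of -0.081 (-0.12 to -0.04) in APs, which became 0.01 as the mean of CPM over cells. Sox3 and Sox9 had the same sign in both, at 0.61 and 0.12 for Sox3 and at -0.34 and -0.18 for Sox9. So did Sox4 (-0.47 and -0.02) and Sox21 (-0.32 and -0.04), whose intervals in APs span 0. Sox3 is X-linked, and with a male WT and a female cKO embryo, sex and genotype cannot be told apart in its AP ratio. The measures differ in cells, culture and method, and the difference between them was not tested.

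**Figure D4:**
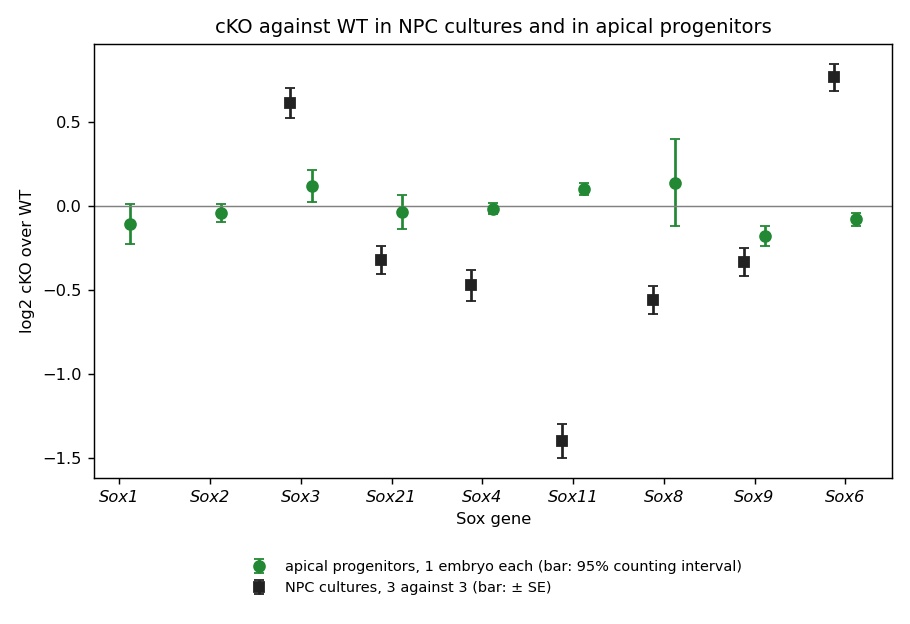
Log2 of cKO over WT for each Sox gene in NPC cultures (black squares, ± SE, 3 cultures against 3) and in APs (green circles, 95% counting interval, 1 embryo each). The green circles stay between -0.18 and 0.14, while the black squares reach from -1.40 for Sox11 to 0.76 for Sox6, and Sox1 and Sox2 have no square because the table lists them at 0.

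In intermediate progenitors, GE cells and both neuron classes, some ratios of genes with at least 200 UMIs in a class went beyond 0.2. In intermediate progenitors Sox21 was at 24.6 and 32.4 CPM (0.40, 0.15 to 0.65), 1 of 8 genes, against 11.6% of all genes upward, and 0 of 8 were beyond 0.2 downward (10.1% of all genes). In GE cells Sox1 was at 83.6 and 102 CPM (0.29, 0.16 to 0.41) and Sox21 at 25.3 and 19.9 CPM (-0.34, -0.59 to -0.10), 1 of 8 each way against 10.7% and 7.62%. Without the cycling cluster, a split added after seeing the data, the ratio of Sox1 was 0.34 and that of Sox21 was -0.17. Emx1-Cre acts in the dorsal neocortex, while the paper describes its interneurons as cells from the GE. Whether GE cells lost Syncrip was not tested, so their ratios compare the embryos and may not reflect the deletion in these cells. Sox6 in migrating neurons was at 128 and 105 CPM (-0.28, -0.35 to -0.21), the 1 of 7 genes beyond 0.2 downward (9.41% of all genes). A cluster of these neurons led by Tafa1 and Tfap2d held 115 WT and 457 cKO cells, and without it the ratio of Sox6 was -0.16. Upward in migrating neurons were Sox2 (0.35) and Sox3 (0.49), 2 of 7 against 12.1%, at levels of 5.09 to 15.6 CPM. Sox2 lay under its level in microglia of the same embryo, but in cKO (15.6 CPM) above the 13.2 CPM that red blood cells allow. In immature neurons Sox2, Sox9 and Sox6 had ratios of 0.53, 0.31 and 0.34, 3 of 5 genes against 9.75% upward and 0 of 5 against 8.51% downward, at low levels. Sox2 was at 5.39 and 7.77 CPM and Sox6 at 18.8 and 23.8 CPM, both under their levels in microglia of the same embryo (23.6 and 34.1 CPM for Sox6). Sox9 was at 6.86 and 8.53 CPM, against 2.62 and 5.25 CPM in microglia (1 and 2 UMIs) and 8.91 and 4.40 CPM in red blood cells (2 and 1 UMIs), too few UMIs to set a background. For the abundant SoxC genes the ratios were small, from -0.08 to -0.02 for Sox4 in APs, intermediate progenitors and both neuron classes, and from -0.11 to 0.10 for Sox11. In smaller classes the ratios of Sox4 and Sox11 were larger and went both ways. They were 0.42 and 0.45 in Cajal-Retzius cells and 0.58 and 0.90 in pericytes, which held only 18 cells in cKO. In endothelial cells they were -0.56 and -0.77, and in meningeal fibroblasts -0.32 and -0.69.

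Summed over all cells of an embryo, the SoxB1 genes were higher in cKO (0.37 for Sox1, 0.34 for Sox2 and 0.47 for Sox3) and the SoxC genes lower (-0.13 for Sox4 and -0.08 for Sox11). The share of cells in the classes with most SoxB1 moved with it, from 11.6% to 13.7% for APs and from 1189 of 8214 to 1629 of 9560 cells for GE cells.

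Within APs, the genes differed between clusters. In the cluster led by Aldoc, Fabp7 and Mt3 (449 WT and 684 cKO cells), Sox4 was at 1192 CPM in the WT and 1088 CPM in the cKO embryo, against 730.5 and 787 CPM in the cluster led by the cell cycle genes Cks2 and Cenpf (310 and 409 cells). Sox2 went the other way, with 332 and 322 CPM in the former and 444 and 436 CPM in the latter, and so did Sox3, with 103 and 115 CPM against 135 and 149 CPM. The third cluster (194 and 214 cells) had a low median of 2822.5 UMIs, and there Sox6 was at 59.8 and 97.3 CPM against 926 and 831 CPM in the first.

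The GE cells fell into clusters with unlike Sox genes. In cells led by Nxph1, Sst and Erbb4 (597 WT and 810 cKO), Sox6 was at 1004 and 1032 CPM, the highest of the 27 clusters, and Sox9 was at 2.89 and 8.64 CPM. In cells led by Adarb2 and Six3 (321 and 524), Sox2 was at 464 and 504 CPM and Sox6 at 231 and 343 CPM. In cells led by Ebf1 and Isl1 (111 and 109), Sox2 had 32 UMIs in each embryo (32.4 CPM in cKO) while Sox1 was at 115 and 98.3 CPM, and Sox8 reached 49.7 and 56.7 CPM, above its level in APs. In cycling cells led by Dlx1 (106 and 126), Sox2 was at 569 and 530 CPM and Sox21 at 98.9 and 75.3 CPM. The 5 GE clusters had the same order in both embryos for Sox2, for Sox6 and for Sox8.

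Likeness to other genes was taken as Pearson's r of log2(CPM + 1) over 54 points, the 27 clusters in both libraries. The points share 2 libraries, clusters differ in depth, and r is given as a description. Sox4 and Sox11 were most alike among the members (r = 0.93), followed by Sox3 and Sox21 (0.81) and Sox1 and Sox2 (0.80). Sox11 was most like Nsg2 (0.94), Dcx (0.92) and Bcl7a (0.91), and Sox4 like Mex3b (0.91), Bcl7a (0.90) and Kdm1a (0.90). Sox3 was most like Hes5 (0.87), Fgfr3 (0.87) and Aldoc (0.86), and Sox9 like Hes5 (0.86), Fzd8 (0.81) and Lmcd1 (0.80). Sox21 was nearest to Nr2e1 (0.89), Igsf11 (0.86) and Acsbg1 (0.85), and Sox6 to Bmper (0.87), Alk (0.86) and Nr2e1 (0.83). Among the 3 genes most like Sox1 was Pou3f4 (0.80), and among those most like Sox2 were Cdca7 (0.81) and Nr2e1 (0.80). Sox8 was nearest to 1110015O18Rik (0.80), 2810468N07Rik (0.80) and Sall3 (0.75).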

How the data were processed

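RNA-seq was measured in 3 WT and 3 cKO NPC cultures and scRNA-seq in 1 WT and 1 cKO embryo. The authors aligned culture reads to mm10 with HISAT2 and deposited untransformed gene counts. Which program and strand setting counted them is not given in the sources used here. Single-cell matrices, also deposited by the authors, hold UMI counts from Cell Ranger (100172392 UMIs in WT and 111313526 in cKO), and the use of intronic reads is likewise not given. LACE-seq samples were not analysed here.

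Culture counts were tested in R 4.3.3 with edgeR 4.0.16 (filterByExpr, TMM, robust quasi-likelihood fit, adjusted p under 0.05). Alternatives were RLE, upper quartile, other filters, DESeq2 1.42.0, limma-voom (limma 3.58.1), a replicate block, sex as a covariate and leaving out each culture.

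Barcodes with 200 or more genes and no more than 10% mitochondrial UMIs were kept and clustered with Seurat 5.3.0 (2000 variable genes without Sox genes, 30 components, 20 neighbours, resolution 0.8). A cluster was named after the marker list of highest mean standardized level (0.5 or more), provided that 3 or more of its markers were raised by 1.5-fold, that no other list had more markers in the top 10 genes, and that clusters of low UMI count had an own marker there. Of the cells, 714 in WT and 830 in cKO stayed without a name. Scrublet in scanpy 1.11.5 marked 3.63% and 4.72% of cells as doublets, which were removed only as an alternative. A count of 0 was taken to allow 3 counts, and intervals are at 95%.

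The members and gene lists were chosen with earlier results of these data known. Named genes are the 9 members, other Sox genes past the filter, up to 4 called genes without overlap and with the largest change from each of 3 lists, and the 3 genes most like each member, of which some are not reported here. Scripts were tested on simulated data.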

Additional observations from a re-analysis of the deposited data

Results flagged for a closer look

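Sox11 and Sox6 had opposite directions in NPC cultures and in APs as clustered at resolution 0.8 with all cells, but not under every alternative. For Sox11 the log2 fold change was -1.40 in cultures, with every cKO culture under every WT culture, and the log2 ratio in APs was 0.10, which became -0.10 with doublets removed and -0.05 at resolution 1.2, the sign of the cultures. For Sox6 the log2 fold change was 0.76 in cultures, with every cKO culture above every WT culture, and the log2 ratio in APs was -0.081, which became 0.01 as the mean of CPM over cells. The difference between cultures and APs was not tested, since APs come from 1 embryo of each genotype.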

How the results depend on the processing

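In the cultures, all 7 Sox genes with counts kept their direction and their call in each of the 14 alternatives, with 2 members higher and 5 lower. The log2 fold change of Sox11 ranged from -1.48 to -1.26, that of Sox6 from 0.72 to 0.81 and that of Sox3 from 0.54 to 0.69. The weakest calls were those of Sox9 (largest adjusted p 0.0412) and Sox21 (0.0383). With the replicate block 2 members were higher and 5 lower, and over all genes 3189 were higher and 3216 lower, against 2843 and 2858 without it. Same-numbered cultures deviated together with r = 0.26, -0.05 and 0.12, so the numbers were not taken as a pairing, and WT cultures 2 and 3 correlated best with a cKO culture of another number. Of neuronal genes linked to SoxC, 1 was called higher with sex as a covariate, and 0 to 1 when a culture was left out. Of glial genes linked to SoxE, 2 to 4 were called higher when a culture was left out, against 5 with all. Without WT culture 2 or cKO culture 1, Sox5 was no longer called. In scRNA-seq, 6 members were highest in WT APs and 0 lay beyond 0.2 in APs in each of the 7 alternatives. As the mean of CPM over cells, the AP ratios of Sox2 and Sox6 were 0.04 and 0.01, and those of Sox3 and Sox9 were 0.02 and -0.07. The removal of the AP cluster of lowest UMI count was chosen after seeing the data. The causes of these shifts were not tested. Depth limits Sox8, with 204 and 330 UMIs in APs, and most members in Cajal-Retzius, vascular, microglial and blood cells. Sox1 and Sox2 cannot be measured in the culture table.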

Other observations

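Among Sox genes chosen after their values were seen, the SoxF genes Sox17, Sox18 and Sox7, known from blood vessels, were at 147, 109 and 105 CPM in 24 WT endothelial cells and at 108, 91.0 and 81.8 CPM in 33 cKO endothelial cells, and none had more than 2 UMIs in APs of either embryo. In APs, Sox5 had 340 CPM in the WT and 487 CPM in the cKO embryo, and its log2 ratio of 0.52 (0.47 to 0.57) lies beyond the AP ratios of all 9 members. Sox5 was far higher in immature neurons, at 2919 and 3562 CPM. The alternatives were run for the members only, so the effect of doublets on the Sox5 ratio was not tested. Sox2ot, whose span holds Sox2, was at 270 and 326 CPM in APs (0.27, 0.21 to 0.34) and fell in the cultures (-0.43), where its counts may or may not include reads on Sox2.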
